A study of Bos taurus with 18 samples.

Results

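Sire calving ease (SCE) is a trait of dairy bulls that is judged from the births of the calves they sire. Sperm methylation was compared between 3 adult Holstein bulls labelled high for SCE (H03, H07 and L02) and 3 labelled low (H01, H06 and L09), which are 6 of the 18 bulls of the series. The H or L that starts a bull's name is not its SCE group. The bulls were chosen by label alone, and each bull is 1 semen sample, so the bull is the replicate. All bulls were fertile and age-matched, were picked for extreme predicted transmitting abilities (the genetic merit passed to progeny), and had sperm of mostly normal shape. Several carry other trait labels, which the comparison cannot separate from SCE: H03 is high for sire conception rate and gestation length, L02 is low for sire conception rate and body depth, H01 is high for sire conception rate, and H06 and L09 are both low for cow conception rate, while H07 has no other trait label. The other 12 bulls have no SCE label, entered no test, and are given only as ranges and medians.

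In mammals, DNA methylation is found mostly on the cytosine of CpG dinucleotides. The sperm genome is methylated at most CpGs, with CpG-dense stretches such as many gene starts left unmethylated, and most of this pattern is erased after fertilization while imprinted regions keep theirs. Bisulfite treatment turns a cytosine without a methyl group into uracil and spares a methylated one, and the methylation level of a position is the share of its reads that still show cytosine, in percent. The question asked of these bulls was whether sperm methylation differs with SCE. The labels give high and low without saying which of them stands for easier births, and the study reads a higher SCE as more difficult calving.

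The 6 bulls together listed 25873663 autosomal positions covered by at least 10 reads, and the number per bull ran from 2751759 in H01 to 13338349 in H06. Few of these positions were shared. Only 1936064 positions (7.48%) were listed in at least 2 bulls of each group, and these eligible positions carry all comparisons below unless another set is named. H06 listed 95.1% of them and H01 49.9%. Coverage was listed for H03, L02 and H01 only, with a median of 13, 13 and 12 reads at eligible positions, and the depth of H07, H06 and L09 is unknown. Coverage thus comes with 2 high-SCE bulls and 1 low-SCE bull, so the file layout was not balanced between the groups. The genome was cut into tiles of 2000 bp, of which the 36884 with at least 3 eligible positions in each bull were tested. A tile value is position-adjusted: each bull's percent is taken relative to the group-balanced mean of the same position, so that bulls listing different positions remain comparable. In tiles with few positions such a value can lie below 0 or above 100, as with 110.2% for L09 in a BTA10 tile of 5 eligible positions.

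The genome-wide level of methylation was close to the same in both groups. Averaged over tested tiles it was 75.9% in H03, 75.7% in H07 and 76.5% in L02, against 75.3% in H01, 77.7% in H06 and 75.3% in L09. The high-SCE mean of 76.0% ± 0.409 (SD, n = 3) differed from the low-SCE mean of 76.1% ± 1.37 (SD, n = 3) by -0.0770 points, with p = 1 by a two-sided exact permutation test. H06 was the highest of the 6 bulls on all 29 autosomes, and without H06 the difference was 0.802 points with the opposite sign (p = 0.2, exact permutation test). With 3 bulls against 3 this test cannot give a p below 0.1, and with 3 against 2 it cannot go below 0.2. By chromosome the difference ran from -0.761 points on BTA1 to 0.429 points on BTA14, and limma with Benjamini-Hochberg adjustment called 0 of 29 autosomes (0%; smallest adjusted p = 0.9997, and 0 at an unadjusted p under 0.05). Without H06 it also called 0, with 6 autosomes at an unadjusted p under 0.05 and a smallest adjusted p of 0.163. With all 6 bulls limma gave every autosome the same standard error of 0.891 points. The autosomes come from the same bulls and are not independent, so nothing is read from the 6 autosomes.

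Tiles of low methylation leaned toward lower values in high-SCE bulls. In the 4401 tested tiles under 20%, the mean was 10.5% in H03, 12.3% in H07 and 11.5% in L02, against 11.5% in H01, 13.9% in H06 and 12.3% in L09. The group means were 11.4% ± 0.892 (SD, n = 3) and 12.6% ± 1.19 (SD, n = 3), a difference of -1.13 points (exact permutation p = 0.2, two-sided), and the bulls of the groups overlapped. H06 was the highest bull in 57.9% of these tiles and H03 the lowest in 54.6%. Without H06 the difference was -0.507 points and without H03 it was -0.748 points. In the tiles of 20 to 80% the difference was 0.536 points (p = 0.8) and in the tiles of 80% or more it was -0.0575 points (p = 0.8), both by the same exact permutation test.

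CpG-dense tiles showed the same lean. The 2860 tiles with at least 50 eligible positions lay on all 29 autosomes, had a median level of 13.5%, and averaged 14.9% in H03, 17.1% in H07 and 15.8% in L02, against 16.3% in H01, 18.9% in H06 and 17.3% in L09. H07, a high-SCE bull, stood above H01, a low-SCE bull, so the groups overlapped, and the difference of -1.55 points gave an exact permutation p of 0.2. All high-SCE bulls lay below all low-SCE bulls in 23.3% of the dense tiles and above them in 0.315%, beside 7.15% and 4.19% of all tested tiles. The lower share was 56.7% without H07 and 54.5% without H01, and 24.3 to 28.6% without any other bull. Without 1 bull fewer bulls have to be separated, and over all tested tiles the lower share was then 13.8% without H07 and 12.8% without H01. These tiles were also the deepest, with a median coverage of 34.6 reads in H03, 34.0 in L02 and 22.4 in H01, against 13.6, 13.5 and 11.7 over all tested tiles, and the part of depth in the difference was not tested. Without 1 bull the difference ran from -0.975 points (without H06) to -2.17 points (without H07).

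**Figure D1:**
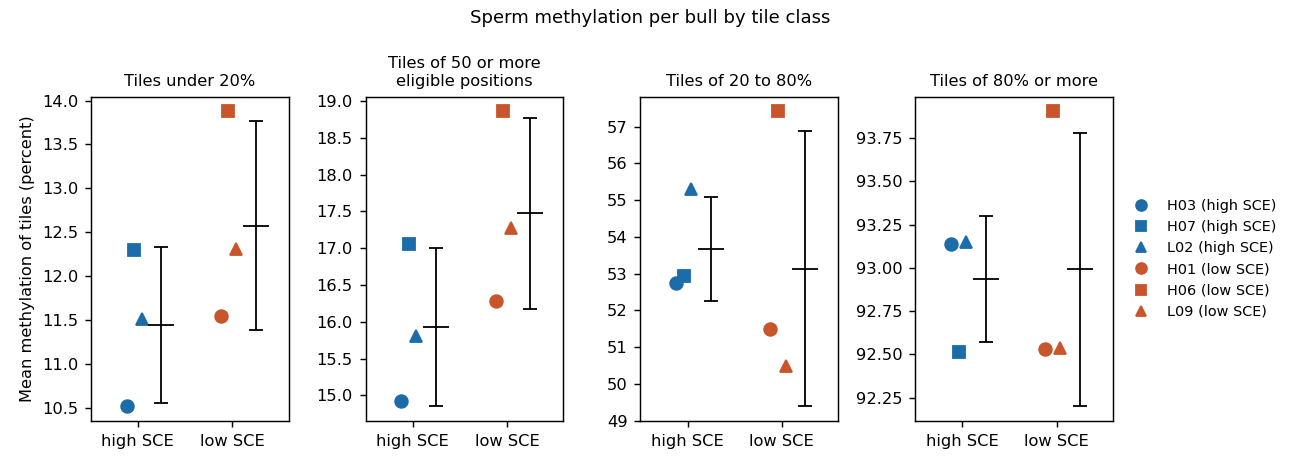
Mean methylation (percent) of each bull over tested tiles of 4 classes: under 20%, at least 50 eligible positions, 20 to 80%, and 80% or more. Each panel has its own axis, which does not start at 0; symbols are bulls, and the bar and whiskers are the group mean and SD (n = 3). H06 is the highest bull in every panel, and the groups overlap in every panel.

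Tile by tile, no difference passed the test between bulls. The median absolute difference was 2.07 points with a median standard error of 2.68 points, 84.2% of tiles lay within 5 points, and 61 tiles (0.165%) differed by over 20 points. With limma and Benjamini-Hochberg adjustment, 0 of 36884 tiles had an adjusted p under 0.05 (0%; smallest adjusted p = 0.870), and 1870 tiles (5.07%) had an unadjusted p under 0.05. Of these, 793 were higher (2.15%) and 1077 lower (2.92%) in high-SCE bulls. The spread between bulls of the same group was widest in tiles of 20 to 80%, where the within-group SD was 8.16 points, against 2.35 points in tiles under 20% and 4.29 points in tiles of 80% or more.

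With all 6 bulls, tiles where the groups did not overlap were more often lower in high-SCE bulls, and this lean turned without H06. All 3 high-SCE bulls lay above all 3 low-SCE bulls in 1544 tiles (4.19%) and below them in 2638 tiles (7.15%), together 11.3% of tested tiles. Without H06, 11.01% of tiles were higher and 10.04% lower, whereas without any other bull the lower share stayed the larger one, at 11.7 to 13.8% against 7.20 to 8.38%. The lean was widest in tiles of 10 to 20%, of which 18.2% were lower and 1.02% higher. Tiles under 10% leaned less, with 9.76% lower and 3.00% higher. Of tiles under 20%, 16.0% were lower and 1.55% higher, and of tiles from 20 to 40%, 12.3% were lower and 2.63% higher. In tiles of 80% or more the shares were 5.87% and 4.75%, and from 40 to 60% and from 60 to 80% slightly more tiles were higher (4.34% and 4.21%) than lower (3.68% and 3.69%). In tiles under 20% the lower share was also the larger one without H06, at 17.8% against 5.34%. It was 40.3% without H07 and 33.1% without H01, beside 13.8% and 12.8% of all tested tiles. Without 1 bull fewer bulls have to be separated, so these shares are not set against those of all 6 bulls.

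The test of the study's methods is a logistic regression on pooled reads with no term for the spread between bulls. Here it was run on eligible positions, a filter that the study does not describe, so its count is not the study's count. It called 380 differentially methylated regions (DMRs; 1.03% of tested tiles) at q under 0.01 and a difference over 5 points. Of these, 202 were higher (0.548%) and 178 lower (0.483%) in high-SCE bulls. This balance swung with the low-SCE bulls, from 217 of 254 DMRs higher without H06 to 76 of 236 without L09. Every position was counted as 10 reads, since depth is unknown for 3 bulls. DMRs were found mostly at intermediate levels, with 52.4% of them between 20 and 80% methylation beside 18.3% of tested tiles. The bulls of the groups did not overlap in 175 DMRs (46.1%), beside 11.3% of all tested tiles, but DMRs are picked for their difference. In 73.7% of DMRs the range within a group exceeded the difference between groups. That share was not computed over all tested tiles, so it is not read as high or low. H07 was the bull farthest from the mean of the other 5 in 24.5% of DMRs and in 17.0% of tested tiles, and L09 in 20.5% and 16.6%. With an overdispersion term an F test called 0 DMRs, with 355 tiles past 5 points at an unadjusted p under 0.05. Nothing is read from the count of the F test, which missed known changes in data simulated without spread between bulls.

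The choice of positions moved the DMR count strongly. Over every position that a bull lists, whether or not another bull lists it, and with the same minimum of 3 positions in each bull, the logistic test called 12127 DMRs among 182823 tiles (6.63%), a setting chosen after seeing the data. With the minimum also lowered to 1 position it called 32944 among 533385 tiles (6.18%). The study describes tiles of all positions with at least 10 reads, so both of these settings lie closer to its methods than the eligible positions do. Of the 12127 DMRs, 6226 (51.3%) have an eligible position in each bull. In those tiles the median difference was 11.1 points over every listed position and 4.08 points, in the direction of the call, at the eligible positions. In 44.3% of them the eligible positions still differed by over 5 points that way.

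The 5 largest differences toward higher methylation in high-SCE bulls, among tiles without overlap and with at least 5 eligible positions in each bull, lay on BTA18, BTA27, BTA29, BTA14 and BTA20. They were chosen by the difference, so their values are a description. At chr18:50916001-50918000 (UMD 3.1), where each bull lists all 35 eligible positions, methylation was 80.8% in H03, 74.4% in H07 and 76.0% in L02, against 40.5% in H01, 67.5% in H06 and 49.7% in L09. Every one of the 35 positions was higher in the high-SCE mean, by 10.4 to 42.6 points, and the bulls without an SCE label ran from 38.3 to 83.3%, across both groups. At chr27:5038001-5040000 (10 eligible positions) the values were 93.9% in H03, 86.9% in H07 and 77.5% in L02, against 64.2% in H01, 67.5% in H06 and 54.2% in L09, and the next tile differed by 13.9 points in the same direction. At chr29:976001-978000 (10 positions) high-SCE bulls ran from 72.6% (H03) to 93.8% (L02) and low-SCE bulls from 53.9% (H06) to 70.6% (L09), so that H03 and L09 nearly met. At chr14:1030001-1032000 (11 positions) H07 stood apart at 81.7%, while H03 had 51.6% and L02 47.4%, against 34.3% in H01, 44.8% in H06 and 32.9% in L09. Mean coverage in this tile was 44.6 reads in H03, 42.2 in L02 and 15.9 in H01, against medians of 13.6, 13.5 and 11.7 over all tested tiles. At chr20:25910001-25912000 (8 positions) high-SCE bulls ran from 68.5% (H03) to 80.3% (L02) and low-SCE bulls from 45.8% (H01) to 57.2% (L09).

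The 5 largest differences toward lower methylation lay on BTA9, BTA29, BTA18 (2 tiles) and BTA12. At chr9:5072001-5074000 (9 positions) methylation was 58.2% in H03, 42.9% in H07 and 67.9% in L02, against 68.3% in H01, 82.5% in H06 and 94.1% in L09, so that L02 and H01 nearly met. At chr29:42460001-42462000 (7 positions) the values were 42.1% in H03, 39.4% in H07 and 48.5% in L02, against 72.3% in H01, 63.2% in H06 and 59.1% in L09. Here H01 and H06 lay above the highest of the bulls without an SCE label, which ran from 35.2 to 60.7% with a median of 49.4%. At chr18:59374001-59376000 (7 positions) the high-SCE bulls ran from 43.3% (H07) to 65.5% (L02) and the low-SCE bulls from 69.5% (H01) to 81.6% (H06). At chr18:43380001-43382000 (8 positions) they ran from 53.5% (H03) to 75.0% (L02) and from 77.3% (L09) to 90.3% (H06). At chr12:76686001-76688000 (14 positions) the values were 42.3% in H03, 46.7% in H07 and 54.5% in L02, against 62.6% in H01, 65.3% in H06 and 69.4% in L09, and all 14 positions were lower in the high-SCE mean. Over the 10 tiles the limma difference ran from -25.3 to 24.5 points, the unadjusted p from 0.00295 to 0.0205, and each had an adjusted p of 0.870. In 8 of the 10 tiles every eligible position shared the direction of the tile. Without 1 bull the difference moved by over 1.5 times in 4 of them. It was 10.5 points without H06 and 14.3 points without H01 in the BTA29 tile at 976001, 12.1 points without H07 in the BTA14 tile, -16.2 points without L09 in the BTA9 tile, and -32.8 points without H07 and -36.95 points without L09 in the BTA18 tile at 43380001. The 5 directly adjacent tiles with a value in each bull had the direction of the named tile, 3 of them by over 10 points and 1 by only -0.295 points, and 2 of them rest on as few as 1 position in a bull. Directly adjacent tiles shared a direction in 63.4% of cases over all tested tiles, and in 84.4% beside tiles without overlap and with at least 5 positions in each bull, so such sharing is common.

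**Figure D2:**
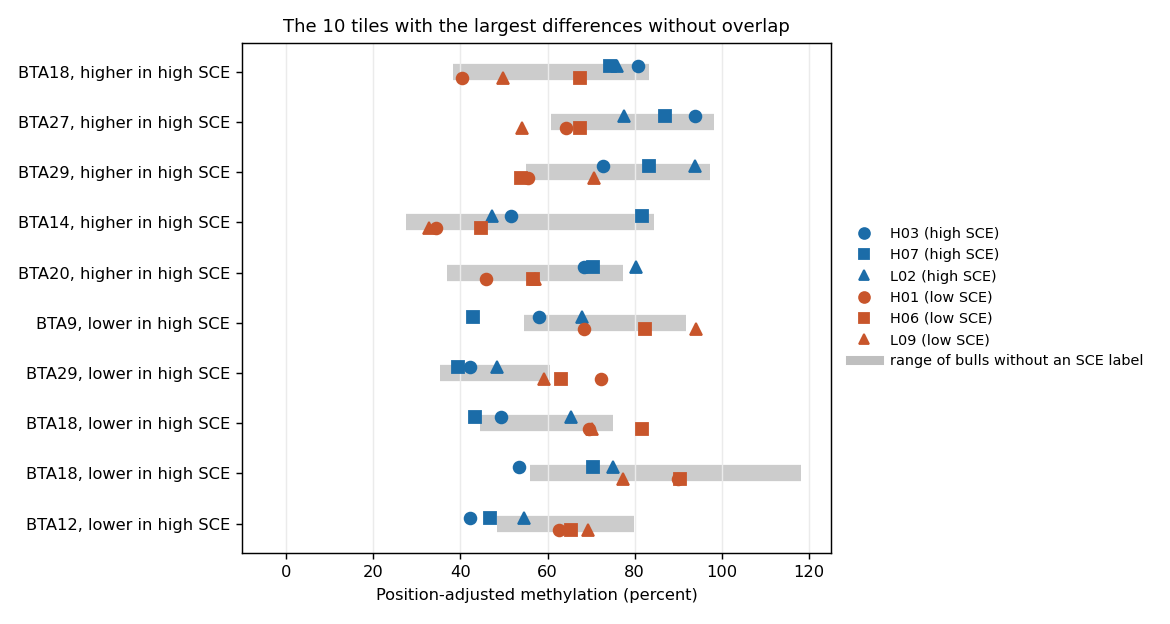
Position-adjusted methylation (percent, horizontal axis) of each SCE bull in the 10 tiles with the largest differences among tiles without overlap, 1 row per tile in the order of the text. Blue symbols are high-SCE and orange symbols low-SCE bulls, and grey bars span the bulls without an SCE label; adjusted values can pass 100. In every row the grey bar covers at least 1 bull of each group.

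DMRs were clustered along the genome. Of the 380 DMRs, 70 (18.4%) fell into 7 windows of 1 Mb that hold at least 5 each, and these windows hold 795 tested tiles. The windows are fixed and counted from the start of each chromosome, so a group of DMRs that a window edge splits can be missed. Such a group lay on BTA18 between 50916001 and 51106000. Its DMRs were all higher in high-SCE bulls, and it holds the first higher tile named above. The windows were found from the calls themselves, so the values below are the position-adjusted means of each bull over the DMR positions of a window, with no test. On BTA12, 7 DMRs between 76426001 and 76714000 were all lower in high-SCE bulls, among 50 tested tiles of the window. Over their 80 positions the mean was 37.8% in H03, 42.7% in H07 and 41.5% in L02, against 52.2% in H01, 61.4% in H06 and 55.3% in L09. The bulls without an SCE label ran from 39.7 to 61.2% with a median of 52.5%, so H03 lay below all of them and H06 just above. This is the window of the fifth lower tile named above, and 4 of its 7 DMRs had no overlap between groups. With 1 bull left out the test called between 0 (without H03) and 4 (without L09) DMRs in it. Leaving out a bull also changes which tiles are tested, from 19217 without H06 to 60272 without H01. Over all tested tiles the DMR share then ran from 0.762% (without H01) to 1.63% (without L02), beside 1.03%. The tiles tested in each window were not counted in those settings. Counts without a bull, here and in the windows below, are therefore not read as the part of that bull.

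BTA14 held 3 of the windows. In the first Mb of BTA14, 12 of 15 DMRs were higher in high-SCE bulls, and in the next Mb all 11 were. H07 stood apart in both windows and was the highest bull in 12 of 15 and in 11 of 11 DMRs. Over the DMR positions of the first window H07 had 56.9%, H03 45.4% and L02 37.6%, against 38.0% in H01, 44.9% in H06 and 39.96% in L09. In the next window H07 had 74.2%, H03 60.05% and L02 54.7%, against 49.0%, 59.0% and 50.9% in the same low-SCE bulls. In both windows H07 lay above every bull without an SCE label, whose highest values were 53.1% and 71.7%. Without H07 the test called 5 and 1 DMRs in these windows, beside 0.881% of all tested tiles. Without L02, the lowest high-SCE bull in both, it called 50 and 17, beside 1.63% of all tested tiles. Without H06 it called 27 in the first. Without H01 or L09 it called 7 in the first and 3 in the next. Between 15080001 and 15370000 of BTA14, all 12 DMRs were lower in high-SCE bulls, with 58.3% in H03, 67.1% in H07 and 79.6% in L02 against 79.7% in H01, 87.6% in H06 and 73.2% in L09. L02 lay among the low-SCE bulls there, none of the 12 DMRs was free of overlap, and without H03 the test called 2.

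On BTA27, 13 of 15 DMRs between 5038001 and 5986000 were higher in high-SCE bulls. The mean over their positions was 52.1% in H03, 56.4% in H07 and 70.7% in L02, against 54.2% in H01, 56.9% in H06 and 40.3% in L09. L02 lay above and L09 below all bulls without an SCE label (47.0 to 66.7%), while the other 4 bulls lay between 52.1 and 56.9%. Without L02 the test called 3 DMRs in the window and without L09 it called 5, whereas with another bull left out it called 15 to 22. On BTA17, 5 DMRs between 14214001 and 14230000 were higher in high-SCE bulls, with 76.1% in H03, 64.8% in H07 and 78.0% in L02 against 65.2% in H01, 70.6% in H06 and 58.6% in L09, and H07 lay below both H01 and H06. The test called 0 DMRs there without L02 or L09, 1 without H03 and 2 without H01. The window on BTA18 from 57 to 58 Mb, with 5 DMRs, is described with ZNF613.

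**Figure D3:**
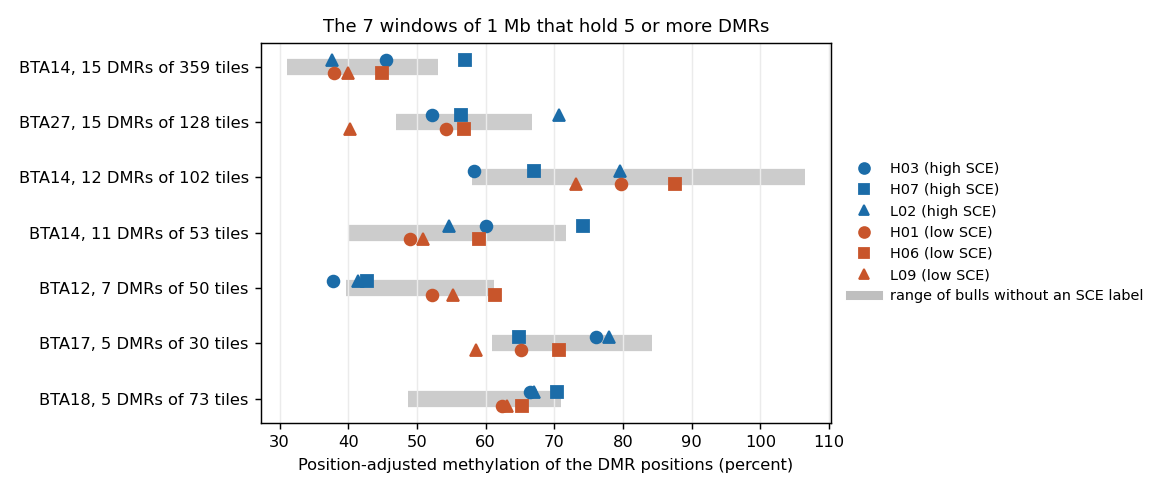
Position-adjusted methylation (percent, horizontal axis) of each SCE bull over the DMR positions of the 7 windows of 1 Mb with at least 5 DMRs, with blue high-SCE and orange low-SCE symbols and a grey bar for the range of bulls without an SCE label. In the BTA12 window (7 DMRs of 50 tiles) high-SCE bulls lie at 37.8 to 42.7% and low-SCE bulls at 52.2 to 61.4%, whereas H07 stands apart in the BTA14 windows with 15 and 11 DMRs, and L02 and L09 in the BTA27 window.

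Longer runs of adjacent tiles without overlap were lower in high-SCE bulls. Among runs of at least 3 adjacent tested tiles, 51 were lower and 0 higher, and among pairs of adjacent tiles 114 were lower and 12 higher. Stretches of adjacent tested tiles were not counted, so these counts have no share beside them. In the dense tiles described above, 23.3% were lower and 0.315% higher without overlap. How many tiles of the runs are also dense or under 20% was not counted, so the runs are not read as a separate result. With 1 bull left out, runs of at least 3 tiles were also found in the other direction, from 2 higher and 45 lower without H03 to 19 higher and 38 lower without H06. Without H07 or H01 the lower runs numbered 226 and 202. Fewer bulls have to be separated there and other tiles are tested, so these counts are not set against the 51. With all 6 bulls the longest run covered 9 tiles at chr5:114212001-114230000, followed by 8 tiles at chr8:74716001-74732000 and 6 tiles at chr11:74248001-74260000. These are CpG-dense stretches, with 799, 751 and 583 eligible positions. In the BTA5 run methylation was 19.9% in H03, 21.3% in H07 and 20.4% in L02, against 22.0% in H01, 24.1% in H06 and 24.0% in L09. In the BTA8 run it was 17.1%, 18.4% and 17.5% in the same high-SCE bulls, against 19.4%, 21.3% and 20.7% in the same low-SCE bulls. In the BTA11 run it was 18.4%, 19.7% and 19.4% against 21.2%, 23.2% and 22.5%. The high-SCE mean minus the low-SCE mean was -2.84, -2.78 and -3.14 points, and none of the tiles was a DMR. The smallest unadjusted limma p of a tile was 0.0627, 0.0558 and 0.0355 in the 3 runs, and each adjusted p was at least 0.870. The median of the 12 bulls without an SCE label was 20.5%, 17.4% and 19.8%, within the range of the high-SCE bulls in the first pair of runs and just above it in the BTA11 run, and H06 and L09 lay above the highest of the 12 (22.6%, 19.9% and 22.1%). Coverage in these runs was 37.7, 37.3 and 41.9 reads in H03 and 24.5, 24.6 and 27.2 reads in H01, so they belong to the deepest parts of the data.

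**Figure D4:**
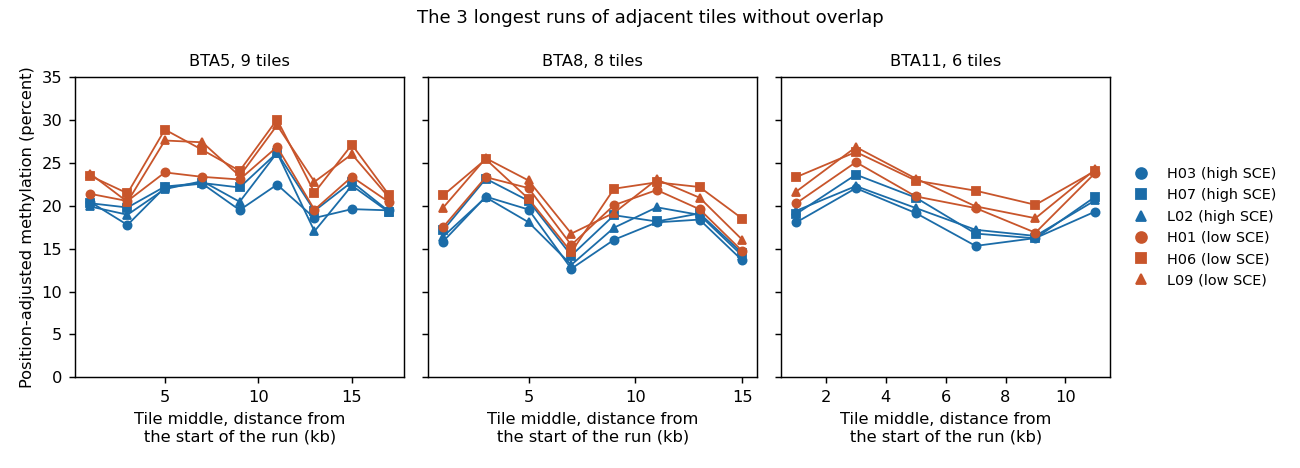
Position-adjusted methylation (percent) of each SCE bull along the 3 longest runs of adjacent tiles without overlap, against the distance of each tile's middle from the start of the run (kb). In every tile the 3 high-SCE bulls (blue) lie below the 3 low-SCE bulls (orange), by a few points at a level near 20%.

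At single positions the picture was the same. Among the 1936064 eligible positions, limma called 0 at an adjusted p under 0.05 (0%; smallest adjusted p = 0.133), and 128146 (6.62%) had an unadjusted p under 0.05. Differences over 50 points were seen at 5762 positions (0.298%), 3037 higher and 2725 lower in high-SCE bulls. At smaller thresholds the lower positions were the larger group, with 139568 higher and 161396 lower over 10 points and 37603 higher and 39506 lower over 20 points. Without the mean-variance trend limma called 9 positions (0.000465%), each listed in 5 bulls, of which 8 were at 0% in all high-SCE bulls. The first 3, chr5:51035465, chr10:34561045 and chr21:59063905, were at 0% in H03, H07 and L02 and at 100% in H06 and L09. The bulls without an SCE label also ran from 0% up to 100%, 76.5% and 100% at these positions. Eligible neighbours within 200 bp differed by -10.3 to 5 points at the BTA21 position, -7.14 to 4.55 points at the BTA5 position and -4.75 to -0.721 points at the BTA10 position. The percent is the share of reads that show cytosine, and the genotypes of the bulls were not examined. A sequence variant at a position can therefore not be told apart from methylation, here or in tiles that hold such positions. The BTA10 position lies in chr10:34560001-34562000, the DMR with the largest difference of all (-41.8 points over 5 eligible positions, itself included). Methylation of this tile was 60% in H03, 52.7% in H07 and 46.8% in L02, against 77.8% in H01, which does not list the position, 97.6% in H06 and 110.2% in L09, with no overlap. At chr29:42482958, with 0% in H03, H07 and L02 and 70% in H06 and L09, both eligible neighbours were also lower in high-SCE bulls, at -62.2 and -42.5 points. It lies on BTA29 beyond the second lower tile named above.

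Differences were shared over short distances. At the 126040 CpGs with both strands eligible, which were read separately, the differences of the strands had a correlation of 0.220 across CpGs, which are not independent replicates and share the same bulls. Between eligible positions of different CpGs the correlation was 0.234 at 2 to 20 bp, 0.0909 at 100 to 200 bp and 0.0282 at 2000 to 5000 bp. Over all these CpGs both strands went the same way in 53.4%. Where the first strand differed by over 50 points (49 CpGs), the other strand went the same way in 95.9% of CpGs, with a median of 35.9 points in that direction beside 57.1 points on the first strand. Where it differed by over 10 points (17105 CpGs), the other strand went the same way in 64.1% with a median of 2.95 points.

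ZNF613, a zinc finger gene on BTA18 and the candidate gene that the study singled out, differed little over its eligible positions. The gene (ID 100125304) spans chr18:58100688-58141930 on UMD 3.1 in the study's gene list, and 27 eligible positions lay within it and 2000 bp on both sides. The mean was 48.5% in H03, 53.3% in H07 and 46.7% in L02, against 51.1% in H01, 48.9% in H06 and 48.1% in L09. The value of H01 rests on only 6 of the 27 positions. The group means of 49.5% ± 3.41 (SD, n = 3) and 49.4% ± 1.56 (SD, n = 3) differed by 0.144 points, less than the spread within either group. From 58100381 to 58101831, around the first base of the gene, the 7 eligible positions were at 0% in most bulls and at 16.7% or less in all that list them. Positions from 58108271 to 58118804 were at 90% or more in every bull that lists them. From 58124950 to 58125141 levels differed from position to position and varied within groups: at 58124950 they were 40%, 84.6% and 54.5% in H03, H07 and L02, against 83.3% in H06 and 54.5% in L09, while at 58125113 all 5 bulls that list it were at 9.09% or less. No tile of the gene held 3 eligible positions in each bull.

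The study's own tile in this gene, chr18:58126001-58128000, holds 1 eligible position. Over all positions that each bull lists there, the means were 17.4% in H03 (16 positions), 13.7% in H07 (5) and 51.1% in L02 (9), against 66.7% in H01 (3), 49.3% in H06 (20) and 46.7% in L09 (11). The study reports lower methylation at this DMR in animals of higher SCE. In a later passage, however, it links higher methylation of the gene's second intron, where it places the DMR, to harder calving. Its text thus gives both directions. By the means over listed positions H03 and H07 lay below all low-SCE bulls, while L02 lay among the low-SCE bulls. The bulls differ in which positions they list, so the means do not compare the same positions. At the only eligible position, 58126520, methylation was 16.7% in H07 and 0% in L02, against 0% in H01 and 7.69% in H06. With 1 position in 4 bulls, no direction is read from it. In the tile before it, chr18:58124001-58126000, the 4 eligible positions are those from 58124950 to 58125141.

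ZNF613 is 1 of 25 genes that the study fine-mapped for gestation length, and the study also names it as a candidate for SCE. Of these genes, with 2000 bp on both sides, 22 had an eligible position and 21 a value in each bull. Differences ran from -2.39 to 9.43 points with a median of 0.0813 points, 17 of 21 genes lay within 2 points, and in 19 of 21 the spread within a group exceeded the difference. The bulls of the groups did not overlap in 6 of the 21 genes (28.6%), 4 higher and 2 lower in high-SCE bulls. Among 47258 windows of 50 kb over all autosomes, valued in the same way, 10% did not overlap (4.42% higher and 5.61% lower). Several of the 21 genes lie next to each other, so they are not independent, and the share was not tested. Only 7 genes held a tested tile. Of their 22 tested tiles, 0 were DMRs beside 1.03% of all tested tiles, 1 had an unadjusted limma p under 0.05 beside 5.07%, 1 was without overlap and higher beside 4.19%, and 1 was without overlap and lower beside 7.15%. Among the 139 tiles in 19 genes with at least 1 eligible position in each bull, 6 had an unadjusted p under 0.05 (4.32%, beside 4.78% of all such tiles, of which 2.27% were higher and 2.51% lower). Without overlap were 6 higher tiles beside 4.45% of all such tiles and 6 lower ones beside 5.5%, together 8.63% beside 9.95%. None was a DMR, beside 0.396% of all such tiles (0.206% higher and 0.19% lower).

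Among the genes grouped under embryonic development, MYH10 (ID 317655), a non-muscle myosin heavy chain, held the only tested tile of the list with an unadjusted p under 0.05, at chr19:28778001-28780000. Methylation there was 97.0% in H03, 90.5% in H07 and 95.6% in L02, against 99.7% in H01, 97.4% in H06 and 99.9% in L09, a difference of -4.64 points. Its limma p was 0.0369 unadjusted and 0.870 after Benjamini-Hochberg adjustment. The gene as a whole differed by -0.0449 points over 133 positions. NRG2, a ligand of ErbB receptors, differed by 0.157 points over 163 positions. NDEL1, which works with the dynein motor, was 87.3%, 87.9% and 86.5% in H03, H07 and L02, against 82.8%, 86.0% and 85.6% in H01, H06 and L09, so that all high-SCE bulls lay above all low-SCE bulls. HSF1, the heat shock transcription factor, had the largest gene difference of 9.43 points, over only 9 positions. It was 98.1%, 91.0% and 93.4% in H03, H07 and L02, against 77.2% in H01, 89.7% in H06 and 87.4% in L09, with no overlap but a range of 12.5 points within the low-SCE bulls.

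Among the DNA processing genes, WWP2 (ID 512457), a ubiquitin ligase, was the best covered gene with 247 eligible positions and differed by -0.0609 points. Its tile chr18:37022001-37024000 was higher without overlap, with 91.1%, 94.3% and 89.9% in H03, H07 and L02 against 89.6%, 87.7% and 85.4% in H01, H06 and L09. The adjusted limma p of this tile was 0.870. CDKL1, a kinase, differed by 0.0813 points over 56 positions. CPSF1, a subunit of the complex that cuts pre-mRNA 3′ ends, differed by 1.79 points over 16 positions, with H01 at 73.2% and the other 5 bulls between 81.5 and 84.2%.

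Among the immune genes, CYSTM1 (ID 777789), a small membrane protein, was higher in all high-SCE bulls over 52 positions, with 81.5%, 81.4% and 82.2% in H03, H07 and L02 against 79.5%, 79.3% and 80.7% in H01, H06 and L09. The difference of 1.83 points compares with SDs of 0.422 and 0.761 (n = 3 each). Its tile chr7:53048001-53050000, just inside the annotated gene interval that begins at 53047810, was at 6.99%, 5.0% and 9.17% in the high-SCE bulls against 2.76%, 2.95% and 1.39%, with as little as 1 position in a bull. The adjusted limma p of this tile was 0.875. HCFC2, a host cell factor, had 6 eligible positions. For cell differentiation, ARID4B, a chromatin protein, was lower in all high-SCE bulls over 120 positions, with 83.0%, 82.8% and 82.4% against 84.2%, 85.9% and 83.9%, and ZNF16 differed by 3.14 points over 15 positions.

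Among the 13 other genes, LOC107131356 was higher in all high-SCE bulls over 96 positions (95.3%, 94.8% and 95.1%, against 94.1%, 93.6% and 94.1%), and DNAH2, a dynein heavy chain of the sperm tail, was lower in all of them over 75 positions (92.0%, 89.96% and 91.9%, against 93.2%, 92.5% and 92.5%). SCRT1, a transcriptional repressor, was the only gene of low methylation, at 21.1 to 25.5% over 5 positions. DGAT1, the enzyme of the last step of triglyceride synthesis, FBXL6 and SLC52A2 had no eligible position, and BOP1 had 1 that was not listed in every bull.

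**Figure D5:**
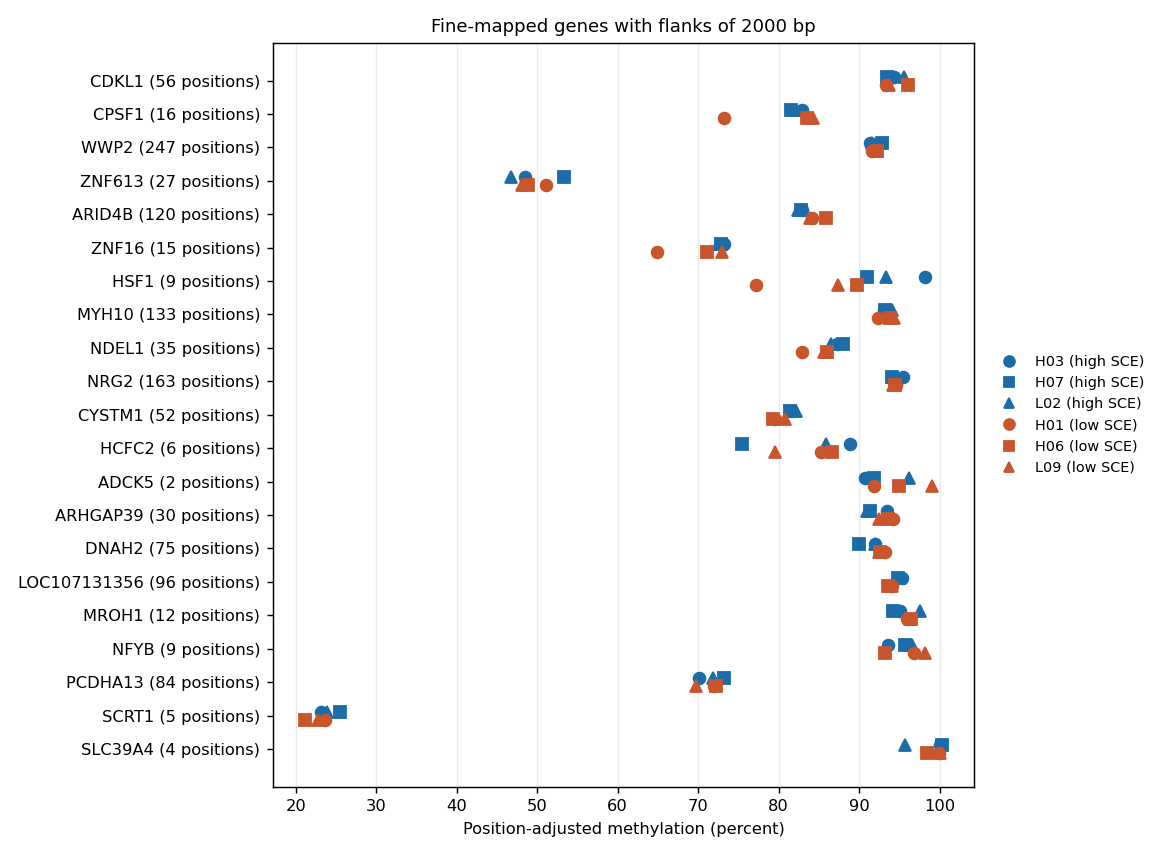
Position-adjusted methylation (percent, horizontal axis) of each SCE bull over the eligible positions of the 21 fine-mapped genes with a value in each bull, with 2000 bp on both sides; the number of positions stands beside each name. Blue symbols are high-SCE and orange symbols low-SCE bulls. In genes with many positions, such as WWP2 and NRG2, the 6 bulls lie within a few points of each other, while genes with few positions, such as HSF1 and HCFC2, spread more.

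In the windows of 1 Mb on both sides of the 9 lead variants for gestation length, the mean difference over tested tiles ran from -1.11 to 2.82 points. Of 558 tested tiles there, 33 (5.91%) had an unadjusted limma p under 0.05 beside 5.07% of all tested tiles, 26 were higher and 19 lower without overlap (together 8.06%, beside 11.3%) and 28 were DMRs (5.02%, beside 1.03%). Of the 28 DMRs, 23 lay in the BTA14 window (249 tested tiles), where the mean was 45.3% in H07 and 34.2 to 40.8% in the other 5 bulls, and 5 in the window around ZNF613 on BTA18. The logistic test pools reads, so tiles with more positions pass its q more readily. In the first and next Mb of BTA14 and at 57 to 58 Mb of BTA18, DMRs had medians of 37, 32 and 28 eligible positions. The median over all tested tiles was 8, and the part of this in the DMR share was not tested. The BTA18 DMRs lay between 57406001 and 58000000, before the gene. Of them 4 were higher in high-SCE bulls, among them chr18:57998001-58000000 without overlap, with 60.3%, 72.6% and 54.9% in H03, H07 and L02 against 43.4%, 49.1% and 39.9% in H01, H06 and L09. The tile chr18:57568001-57570000 was lower without overlap, with 34.7%, 44.6% and 52.8% against 57.2%, 55.4% and 59.7%. Over the positions of the 5 DMRs the high-SCE bulls ran from 66.5 to 70.4% and the low-SCE bulls from 62.4 to 65.3%. Without H03 the test called 2 DMRs between 57 and 58 Mb and without L09 it called 1. The bulls without an SCE label ran from 48.6 to 71.0%, across both groups.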

How the data were processed

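Whole-genome bisulfite sequencing was done on sperm of 18 Holstein bulls. Per the submitters' processing notes and the study's methods, reads were checked with FastQC 0.11.2, trimmed with Trim Galore 0.4.0, mapped to UMD 3.1 with Bowtie2 and called with Bismark 0.14.5. The authors deposited a methylated percent for CpG positions with 10 or more reads, and each strand of a CpG is its own position. For 3 of the 6 SCE bulls the deposited files also hold the count of reads per position. In these files the column near 100 at most positions was read as the methylated percent. For the other SCE bulls depth is unknown, so precision rests on the spread between bulls.

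Groups were taken from the labels. Eligible positions are autosomal positions listed in at least 2 bulls of each group. Tile and position values were compared with limma 3.58.1 (R 4.3.3) with a mean-variance trend, means by exact permutation tests in SciPy 1.17.1, and tiles also by the study's logistic regression, with q from a simplified SLIM estimate and 10 reads per position. The tests across tiles were run on simulated data. The reads simulated for the logistic and F tests had no spread between bulls of a group beyond read sampling. They could not show false calls that such spread gives the logistic test. Named were the study's 25 fine-mapped genes (its UMD 3.1 coordinates), the 5 highest and 5 lowest differences among tiles without overlap and with at least 5 eligible positions in each bull, the 3 longest runs, and positions past the limma threshold, of which there were none. The positions without the trend, the DMR windows, the windows of 50 kb, the direction of tiles and runs without each bull, the tiles under 20%, the dense tiles, the BTA10 tile and the BTA18 tiles before ZNF613 were chosen after their values were seen. The members and lists were chosen with earlier results of these data known. Comparisons by gene region, imprinted or marker genes and the check of the tissue by markers were not run, since no annotation of UMD 3.1 was used here. Alternatives changed the minimum of positions per tile, the eligible positions, the tile start, strand merging, coverage, the scale, the trend, the reads per position, the thresholds and the bulls.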

Additional observations from a re-analysis of the deposited data

How the results depend on the processing

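Limma called 0 tiles under each of 16 alternatives, among them each bull left out, and 0 chromosomes without each bull, although without H06 6 chromosomes had an unadjusted p under 0.05 (smallest adjusted p = 0.163). Chromosomes of the same bulls are not independent, so nothing is read from those 6. No stability is read from the direction of the named tiles and runs, which their choice nearly fixes. The DMR count of 380 (1.03% of tested tiles) was 671 (0.396%) with at least 1 position per bull, 76 (0.515%) at positions listed in all 6 bulls, 150 (2.34%) with at least 15 reads where coverage is listed, 933 (2.53%) with 13 reads per position and 0 by the F test. The number of tested tiles differs between settings, so count and share can move in opposite directions: the share was also 1.99% with at least 5 positions and 0.510% with the strands merged. It was 32944 (6.18%) over every listed position and 12127 (6.63%) with at least 3 of them in each bull, both chosen after seeing the data. Without 1 bull the count ran from 234 (without H03) to 459 (without H01) and the share from 0.762% (without H01) to 1.63% (without L02), and the balance of directions swung with the low-SCE bulls: 217 of 254 DMRs were higher in high-SCE bulls without H06, but 76 of 236 without L09, beside 202 of 380. The mean difference of -0.0770 points was 0.0424 with at least 1 position per bull, 0.0768 without H07 and 0.802 without H06, and without 1 bull it ran from -0.551 to 0.802. The share of tiles without overlap, 11.3%, ran from 18.9 to 22.2% without 1 bull, where fewer bulls have to be separated, and leaned to higher values without H06 alone. Limma called 9 positions without the trend and 0 otherwise. Genes with a tested tile without overlap numbered 2 (22 gene tiles), but 7 with at least 1 position (139 gene tiles). Without 1 bull they ran from 0 without H06 (6 gene tiles) to 5 without H01 (43 gene tiles). Over all tiles the share without overlap was 11.3%, 9.95%, 21.0% and 20.5% in these settings. Since the gene tiles and that share both change, nothing about the genes is read from these counts. A change of bulls also changes which positions are eligible, and the cause of these shifts was not tested. No paired analysis was possible because the labels give the SCE bulls no replicate numbers that pair them. Depth is unknown for H07, H06 and L09.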
